A study of Homo sapiens with 9 samples.

Results

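Expression of 9 genes used as markers of liver progenitor cells and hepatoma cells was described in PLC/PRF/5, a human hepatoma cell line. The genes were AFP, GPC3, DLK1, EPCAM, SOX9, PROM1, CD24, CD44 and SPP1, chosen by name from the 58219 gene identifiers in the files and not by their values. Although these genes are often grouped as surface markers, AFP and SPP1 encode secreted proteins and SOX9 a nuclear one. PolyA RNA had been sequenced from 4 samples of cells stably expressing wild-type YES and from 5 samples of cells stably expressing YES with the gatekeeper mutation T348I. YES is a tyrosine kinase of the SRC family, and the gatekeeper residue lies beside the pocket where kinase inhibitors bind. All 9 samples carried an introduced YES and all had received 100 nM dasatinib, which blocks ABL and the kinases of the SRC family, so the comparison is between 2 genotypes under the same drug. Cells without the drug, or without an introduced YES, were not analysed here.

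In the titles the drug is written either dasatinib, for 3 samples of each genotype, or Dasa, for 1 wild-type sample and 2 with T348I. What the spelling stands for is not stated in the labels. It was kept as a term of the model, and the samples are called here the dasatinib set and the Dasa set. The labels also do not say whether each line was a clone or a pool, so the genotype and other differences between the 2 lines cannot be told apart. No label says that the samples of a genotype were separate cultures, so the spread behind the p-values is that between these samples and may be technical. Gene reads per sample lay between 10464731 and 14118614 for wild type and between 10381142 and 15799059 for T348I. YES1 itself stood at 354 ± 13.2 CPM (read counts scaled to a common library size; SD, n = 4) in wild type and 749 ± 233 CPM (SD, n = 5) in T348I; these reads do not separate the introduced from the native gene. The YES1 log2 fold change of T348I over wild type was 0.94 over both sets and 0.74 in the dasatinib set alone. It was larger by 0.71 in the Dasa set, which has a single wild-type sample. With genotype in the model, YES1 was higher in the Dasa set by 0.54. Mitochondrial genes took 7.38% to 9.44% of gene reads in the dasatinib set and 15.3% to 17.0% in the Dasa set. Of 12 hepatocyte markers, 11 reached 1 CPM in some sample, with summed levels of 10665 to 13145 CPM in wild type and 8709 to 11680 CPM in T348I. Of the 11 tested, 8 were called lower in T348I by the edgeR test described below and the other 3 were not called, where 21.8% of all genes tested were lower and 20.7% higher. The hepatocyte marker that did not reach 1 CPM was TTR. ALB and APOA1 were also low, each with a median of 3.37 CPM over the samples. Fibroblast markers summed to at most 10.4 CPM, endothelial markers to at most 4.09 CPM, and leukocyte markers other than LYZ to at most 0.613 CPM. LYZ itself was high, at 803 to 1404 CPM over the samples.

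The liver epithelium has a common origin in fetal hepatoblasts, which give rise to hepatocytes and to the cells of the bile ducts. AFP and DLK1 are made by hepatoblasts and fall silent in the mature hepatocyte, while SOX9, EPCAM and SPP1 are features of bile duct cells and of the progenitors that appear in the injured liver. GPC3 and AFP return in many hepatocellular carcinomas, and PROM1, CD24, CD44 and EPCAM have been used to sort tumour-initiating cells from them.

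In T348I cells the markers went in both directions. CD44, the receptor for hyaluronan, was 7.73-fold higher than in wild type from a very low level, and SOX9, a transcription factor of the bile duct lineage, was 1.85-fold higher. CD24, PROM1 and AFP were lower, at 60.1%, 68.5% and 67.5% of wild type, and GPC3 was slightly lower at 88.3%. SPP1 did not pass the test, EPCAM was too low for it, and DLK1 had no read in any sample. Of the 7 genes that passed the filter on low counts, 2 were therefore called higher and 4 lower by edgeR's quasi-likelihood test at an adjusted p under 0.05, with a median log2 fold change of -0.18. Of the 14617 genes tested, 42.5% were called, 20.7% higher and 21.8% lower, and their median log2 fold change was -0.01. CPM values of the 2 genotypes did not overlap for 5 of the 7 genes, 2 higher and 3 lower, against 19.6% of all genes tested (10.2% higher and 9.41% lower). CD44 passed the filter only through its T348I samples, as its 34 wild-type reads were near the 30 of EPCAM, which the filter removed. Its place in both counts was therefore partly set by the filter. In the dasatinib set alone, 2 were called higher and 3 lower, GPC3 being the one lost, where 35.6% of all genes were called.

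**Figure D1:**
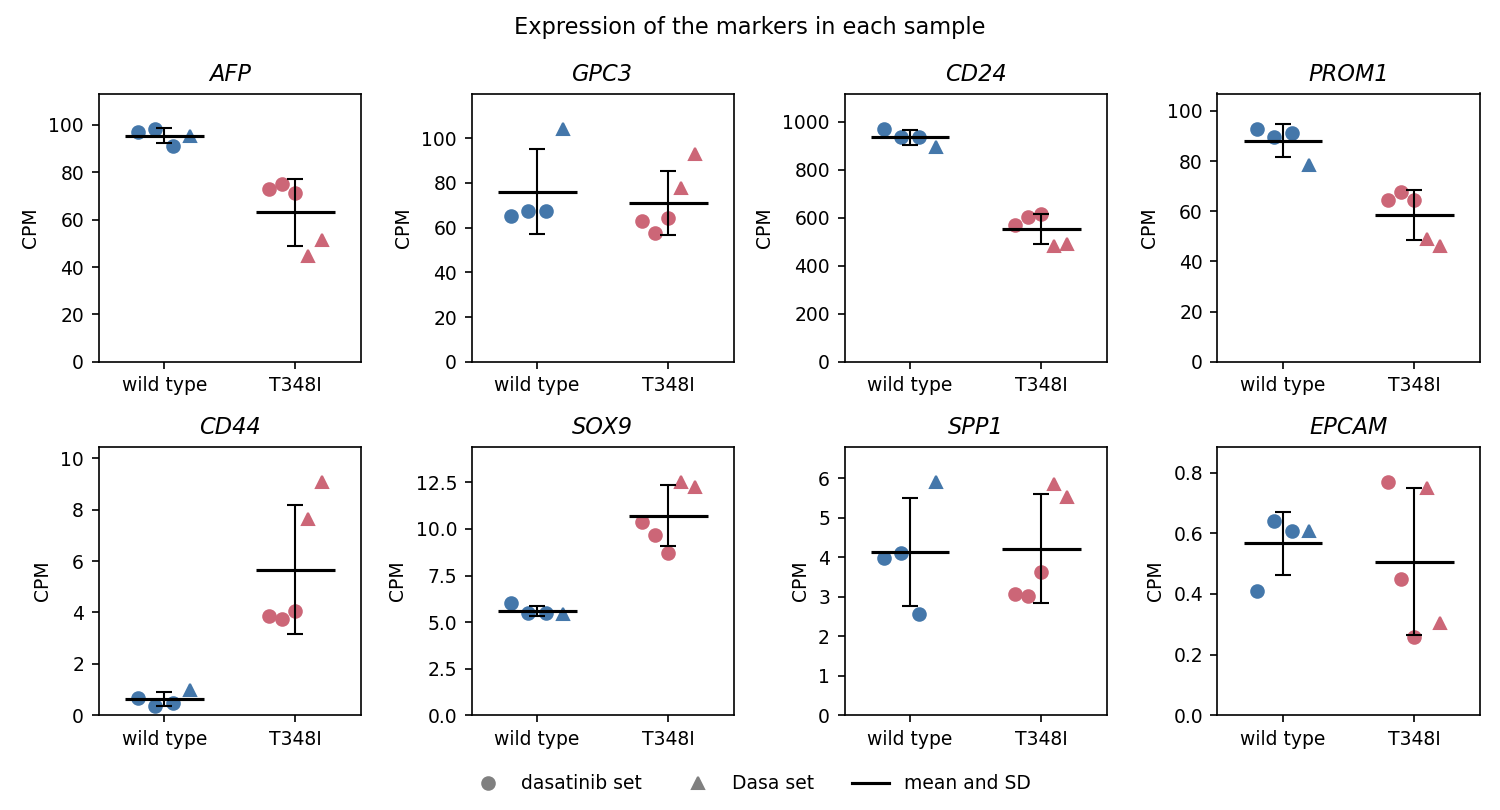
CPM of 8 markers in each of the 9 samples, on linear axes from 0, with circles for the dasatinib set, triangles for the Dasa set, a line for the mean of each genotype and bars for its SD. DLK1, at 0 throughout, is not drawn. CD44 and SOX9 lie higher in every T348I sample, CD24, PROM1 and AFP lie lower in every T348I sample, and GPC3, EPCAM and SPP1 overlap.

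Promoter sequences are shown for the markers whose genotype difference was among the largest and for which the table held a window that could be printed. The RefSeq table (GRCh38.p14) had entries for 5 of the 9 genes (AFP, PROM1, CD24, CD44 and SPP1), in 10 windows of 250 bases before and 50 bases after an annotated start. The 2 AFP stretches below, at chr4:73435971-73436162 and chr4:73436180-73436209 on the plus strand, cover bases -250 to -59 and -41 to -12 from the start. Capitals in the second mark the only TATAAA of the window, at -29 to -24. The CD24 stretch, chr6:106975628-106975877 on the minus strand, is written in the direction of the gene and covers bases -250 to -1, with a GGGCGG in capitals at -99 to -94. The CD44 stretch, chr11:35139001-35139024 on the plus strand, covers bases -170 to -147 and holds GGGCGG on both strands, in capitals. The proximal AFP stretch and that of CD44 lie inside exons that GENCODE annotates.
AFP, distal: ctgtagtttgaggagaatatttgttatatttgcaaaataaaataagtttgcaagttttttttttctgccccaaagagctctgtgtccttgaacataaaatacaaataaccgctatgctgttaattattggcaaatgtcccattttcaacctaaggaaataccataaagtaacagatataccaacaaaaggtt
AFP, proximal: gcctgaaaagagTATAAAagaatttcagca
CD24: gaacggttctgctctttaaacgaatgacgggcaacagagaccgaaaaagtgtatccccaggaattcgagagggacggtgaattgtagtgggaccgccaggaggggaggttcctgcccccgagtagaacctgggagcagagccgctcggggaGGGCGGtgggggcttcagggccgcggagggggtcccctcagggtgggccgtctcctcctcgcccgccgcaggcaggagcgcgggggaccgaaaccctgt
CD44: GGGCGGgggcagaggggcCCGCCC
The AFP stretch before the TATA letters had a GC content of 31.2% and the CD24 stretch 65.6%, beside a median of 58.0% for the bases before the start in the 35116 windows of the table. TATAAA was present in 11.5% of all windows and GGGCGG in 45.0%, counting both strands. Of the other motifs searched on both strands, TGANTCA (AP-1, in 7.71% of all windows) was found in a PROM1 window, GGAATG (TEAD, 14.0%) in a CD24 window, and ACAAAG (SOX, 16.1%) in 2 CD24 windows. CACCTG (E-box, 20.6%) was found in windows of PROM1, SPP1 and CD24, and the HNF1 motif (0.0484%) in none of the 10. The CD44 window held only GGGCGG of these motifs. The HNF1 motif was a long string, found in 17 of the 35116 windows, and near matches were not counted. The distal AFP stretch holds letters that depart from that string only at its end. The lack of a full match therefore does not show that a site is absent. A match of letters is a description and not a binding site.

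AFP is the main plasma protein of the fetus and a serum marker of hepatocellular carcinoma. Its gene (ENSG00000081051.7, chr4:73431138-73456174, plus strand, GRCh38) lies next to albumin. Wild-type samples of the dasatinib set had 96.8, 98.4 and 91.1 CPM and the Dasa sample had 95.2 CPM. T348I samples had 73.0, 75.1 and 71.0 CPM (dasatinib set) and 44.6 and 51.3 CPM (Dasa set). All 5 T348I samples lay below all 4 wild-type samples, and the lowest were those of the Dasa set. Mean levels were 95.4 ± 3.13 CPM (SD, n = 4) and 63.0 ± 14.0 CPM (SD, n = 5), and the log2 fold change was -0.57 (SE 0.08, edgeR adjusted p = 7.78e-06).

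The size of the AFP difference depended on the set. Its log2 fold change was -0.38 in the dasatinib set and -0.99 in the Dasa set, and the difference of -0.61 (SE 0.09) passed edgeR's interaction test with an adjusted p of 6.01e-06. The Dasa value rests on a single wild-type sample, and without that sample the log2 fold change over the rest was -0.38 with an edgeR adjusted p of 5.42e-08. An interaction was called for 2 of the 7 markers, AFP and CD24, both with a deeper fall in the Dasa set, and for 7.33% of all genes tested (3.14% higher and 4.19% lower).

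ALB and GC, relatives of AFP on the same chromosome, stood far below AFP in CPM and were also lower in T348I. ALB, the adult counterpart of AFP, ends 9725 bases upstream and GC, the vitamin D binding protein of the same family, lies 1627096 bases away. Both were chosen for description after their values were seen. AFM, another relative and 25508 bases from AFP, had 7 reads in wild type and 5 in T348I and was too low to test. ALB was at 3.95 ± 0.478 CPM (SD, n = 4) in wild type and 2.49 ± 0.896 CPM (SD, n = 5) in T348I, with a log2 fold change of -0.63 (SE 0.20, edgeR adjusted p = 0.014). GC was at 1.17 ± 0.345 CPM and 0.360 ± 0.0969 CPM, with a log2 fold change of -1.76 (SE 0.32, edgeR adjusted p = 0.00017). These GC values come from 62 reads in wild type and 23 in T348I, where the gene lay near the limit of detection. GC passed the filter on low counts only through wild type, so its call is not independent of that filter. Per kilobase of exon, AFP exceeded ALB in every sample, by 21.9 to 27.6 times in wild type and 22.4 to 39.9 times in T348I, so the ratio of fetal to adult albumin overlapped between genotypes while both genes were lower in T348I. The 8 of 11 hepatocyte markers that were lower in T348I, ALB among them, moved with AFP, and their part in its difference was not tested.

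GPC3 encodes glypican-3, a heparan sulfate proteoglycan held to the membrane by a lipid anchor and a target of antibodies against hepatocellular carcinoma. The gene (ENSG00000147257.13) spans chrX:133535745-133985895 on the minus strand. Wild-type samples had 65.4, 67.3 and 67.6 CPM (dasatinib set) and 104 CPM (Dasa set). T348I samples had 62.8, 57.6 and 64.5 CPM (dasatinib set) and 77.9 and 92.9 CPM (Dasa set). The genotypes overlapped over all samples, but within each set the T348I samples were the lower ones. The log2 fold change was -0.18 (SE 0.05, edgeR adjusted p = 0.011), the smallest of the called markers. That call was lost without the wild-type Dasa sample (-0.12, edgeR adjusted p = 0.11), in the dasatinib set alone (-0.12, adjusted p = 0.071) and without the term for set (-0.10, adjusted p = 0.75). The difference of GPC3 between sets was larger than that between genotypes, since the Dasa samples were higher by 0.54 on the log2 scale (SE 0.06, edgeR adjusted p = 1.10e-07).

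DLK1 and EPCAM, markers by which hepatoblasts and progenitor-like tumour cells are sorted, were at or near the limit of detection. DLK1, a transmembrane relative of the Notch ligands, had 0 reads in all 9 libraries, which allows up to 3 reads, or 0.190 to 0.289 CPM, in a library. EPCAM (ENSG00000119888.10, chr2:47345158-47387601, plus strand), an adhesion molecule of simple epithelia, had 6, 7, 9 and 8 reads in the wild-type samples and 8, 7, 3, 11 and 4 reads in the T348I samples. These are 30 reads against 33 in all, and the genotypes overlapped throughout. With no filter on low counts, the EPCAM log2 fold change was -0.19 (SE 0.39, edgeR adjusted p = 0.81), an error too wide to show a change of the size seen for AFP or PROM1.

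SOX9 marks bile duct cells and the progenitors next to them. Wild-type samples had 6.02, 5.48 and 5.48 CPM (dasatinib set) and 5.46 CPM (Dasa set). T348I samples had 10.4, 9.70 and 8.70 CPM (dasatinib set) and 12.5 and 12.3 CPM (Dasa set). Every T348I sample was above every wild-type sample, and the wild-type samples lay close together. Means were 5.61 ± 0.275 CPM (SD, n = 4) and 10.7 ± 1.65 CPM (SD, n = 5), and the log2 fold change was 0.89 (SE 0.11, edgeR adjusted p = 1.80e-06). A change this high or higher was found in 2.89% of the genes tested. The log2 fold change was 0.75 in the dasatinib set and 1.18 in the Dasa set, and their difference did not pass the test (0.43, edgeR adjusted p = 0.28).

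PROM1 encodes prominin-1, or CD133, a glycoprotein of membrane protrusions that spans the membrane several times. The gene (ENSG00000007062.11) lies at chr4:15963076-16084378 on the minus strand and shares 0.911% of its 50-base exon sequences with FGFBP2 on the same strand. Wild-type samples had 92.9, 89.7 and 91.0 CPM (dasatinib set) and 78.4 CPM (Dasa set). T348I samples had 64.5, 67.7 and 64.5 CPM (dasatinib set) and 49.1 and 46.3 CPM (Dasa set). Groups did not overlap, and in both genotypes the Dasa samples were the lowest. PROM1 had a log2 fold change of -0.55 (SE 0.05, edgeR adjusted p = 1.55e-08), with -0.47 in the dasatinib set and -0.71 in the Dasa set. A fall at least this deep was found in 5.69% of the genes tested, and one as deep as that of AFP in 5.30%.

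CD24, a small and heavily glycosylated protein held by a lipid anchor, had the highest level of the 9 genes in both genotypes. Wild-type samples had 973, 937 and 935 CPM (dasatinib set) and 897 CPM (Dasa set). T348I samples had 569, 604 and 618 CPM (dasatinib set) and 483 and 490 CPM (Dasa set). No T348I sample came near the lowest wild-type sample. Means were 936 ± 31.1 CPM (SD, n = 4) and 553 ± 63.3 CPM (SD, n = 5), and the log2 fold change was -0.73 (SE 0.04, edgeR adjusted p = 8.25e-11), a fall reached by 2.91% of the genes tested. The fall was deeper in the Dasa set (-0.88) than in the dasatinib set (-0.67), with a difference of -0.22 (SE 0.06, edgeR adjusted p = 0.031) whose call was lost on leaving out any of 6 of the samples in turn. The gene (ENSG00000272398.5, chr6:106969831-106975627, minus strand) shares 4.95% of its 50-base exon sequences with other genes, including its pseudogenes, and how many of its reads fall in those sequences was not measured, so its level is uncertain.

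CD44 joins the cell surface to hyaluronan in the matrix and is the marker with the largest difference here. Wild-type samples had 10, 4 and 7 reads in the dasatinib set and 13 reads in the Dasa set, or 0.684, 0.365, 0.474 and 0.985 CPM. T348I samples had 40, 58 and 47 reads in the dasatinib set and 112 and 120 reads in the Dasa set, or 3.85, 3.73, 4.05, 7.63 and 9.09 CPM. Every T348I sample was above every wild-type sample, and in both genotypes the Dasa samples were the highest. The gene passed the filter on low counts only through T348I, so this separation and the call below are not independent of that filter. The log2 fold change was 2.95 (SE 0.20, edgeR adjusted p = 4.63e-10), and 88 genes, 0.602% of those tested, had one as high or higher. It was 2.87 in the dasatinib set and 3.07 in the Dasa set, and over all alternative settings it lay between 2.87 and 3.15. In bulk RNA, more cells with CD44 and more CD44 RNA per cell cannot be told apart. An intronic gene, AL133330.1, lies on the same strand within CD44, and CD44-AS1 lies opposite.

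SPP1 encodes osteopontin, a secreted ligand of CD44 and of integrins (ENSG00000118785.13, chr4:87975650-87983426, plus strand). Wild-type samples had 3.97, 4.11 and 2.57 CPM (dasatinib set) and 5.91 CPM (Dasa set). T348I samples had 3.08, 3.02 and 3.62 CPM (dasatinib set) and 5.86 and 5.53 CPM (Dasa set). The genotypes overlapped, and it was the Dasa samples of both that were high. The log2 fold change was -0.09 (SE 0.15, edgeR adjusted p = 0.65), while the Dasa set was higher by 0.79 (SE 0.15, edgeR adjusted p = 0.00015).

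**Figure D2:**
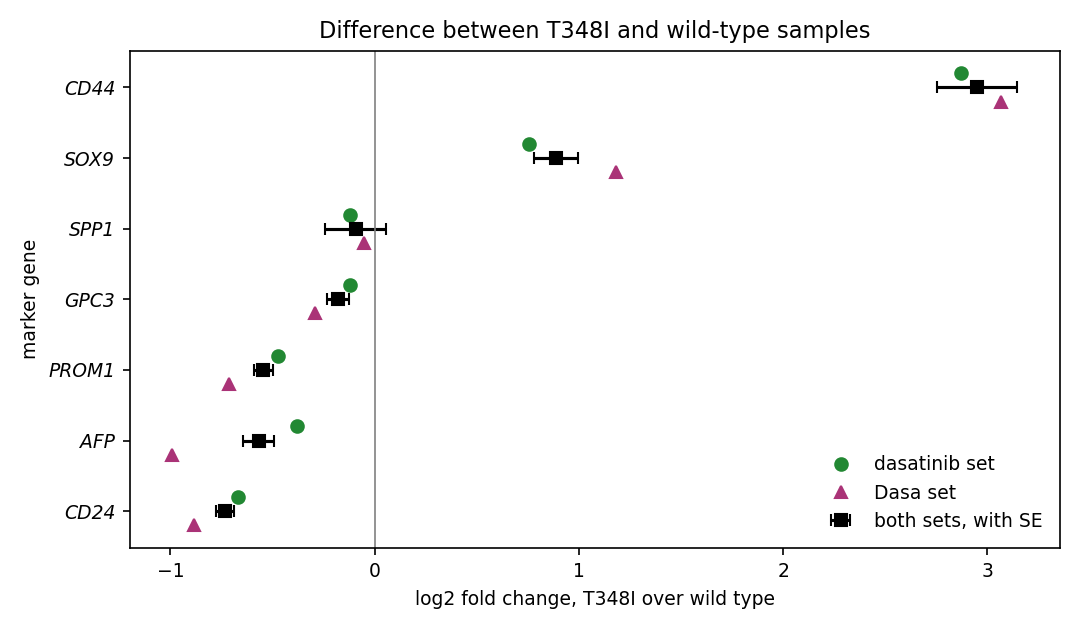
Log2 fold change of T348I over wild type (with SE) for the 7 tested markers, with squares for both sets together, circles for the dasatinib set and triangles for the Dasa set. CD44 stands at 2.95 and SOX9 at 0.89, CD24, AFP and PROM1 lie between -0.73 and -0.55, and the AFP values of the 2 sets are the furthest apart among the markers that fell.

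With genotype as a term of the model, the 2 sets differed for all 7 tested markers, where 58.6% of all genes tested differed. GPC3, SOX9, CD44 and SPP1 were higher in the Dasa set (29.7% of all genes were) and AFP, PROM1 and CD24 lower (29.0%). CD44 differed most, by 1.09 (SE 0.15, edgeR adjusted p = 6.10e-06). PROM1 was lower by 0.36 on the log2 scale (SE 0.05, edgeR adjusted p = 6.26e-06) and CD24 by 0.21 (SE 0.05, edgeR adjusted p = 0.00073). AFP was lower by 0.34 (SE 0.08, edgeR adjusted p = 0.0017), a value that became -0.61 without the wild-type Dasa sample and -0.22 without T348I Dasa replicate 1. The SOX9 difference of 0.25 (edgeR adjusted p = 0.048) lay at the threshold and was lost with DESeq2 (adjusted p = 0.14) and in further alternatives given below. These set differences are taken over both genotypes. In wild type the only Dasa sample did not stand apart for AFP (95.2 CPM against 91.1 to 98.4 CPM in the dasatinib set). For SOX9 it was just below the others (5.46 CPM against 5.48 to 6.02 CPM). The share of mitochondrial reads and the level of YES1, both given above, moved with the set. Their part in these differences was not tested.

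**Figure D3:**
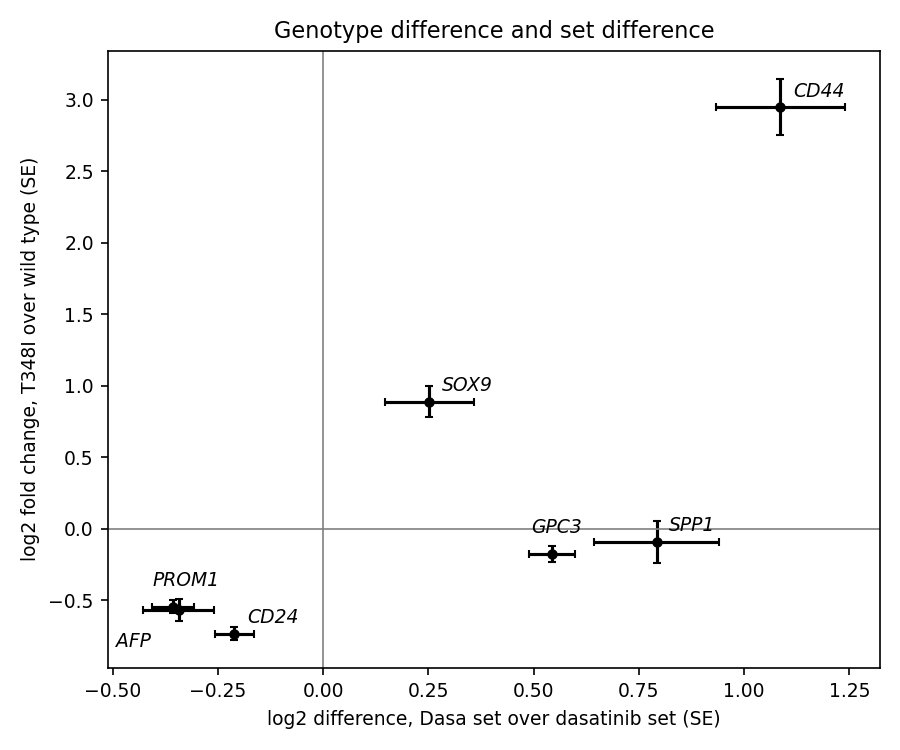
Log2 difference between the sets (horizontal) against the log2 fold change between the genotypes (vertical) for the 7 tested markers, with SE on both axes. CD44 and SOX9 are higher in T348I and in the Dasa set, AFP, PROM1 and CD24 lower in both comparisons, and GPC3 and SPP1 differ mostly by set.

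Levels can be compared between genes only after division by length. FPKM was computed here as CPM per kilobase of exon (GENCODE release 29), without regard to which transcripts are used. In wild type the order was CD24 (302 ± 10.03 FPKM, SD, n = 4), AFP (29.3 ± 0.961), GPC3 (28.1 ± 6.94), PROM1 (11.8 ± 0.882), SPP1 (1.78 ± 0.590), SOX9 (1.43 ± 0.0698), EPCAM (0.225 ± 0.0417) and CD44 (0.0627 ± 0.0273), with DLK1 at 0. AFP and GPC3 overlapped in FPKM, as did SPP1 and SOX9. In T348I the FPKM order was CD24 (178 ± 20.4, SD, n = 5), GPC3 (26.2 ± 5.28), AFP (19.3 ± 4.29), PROM1 (7.86 ± 1.33), SOX9 (2.72 ± 0.420), SPP1 (1.82 ± 0.590), CD44 (0.567 ± 0.251) and EPCAM (0.201 ± 0.0962), again with DLK1 at 0. The same neighbours overlapped, while CD44 and EPCAM changed places in FPKM without overlap in either genotype. Their order in wild type rests on the exon lengths used, 10004 bases for CD44 and 2519 for EPCAM. Their wild-type reads were alike (34 and 30) and their CPM values overlapped there, so CD44 was not shown to lie below EPCAM. CD24 exceeded CD44 by 2940 to 8283 times in the wild-type samples and by 174 to 524 times in the T348I samples, so CD24 remained far above CD44 in all 9.

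**Figure D4:**
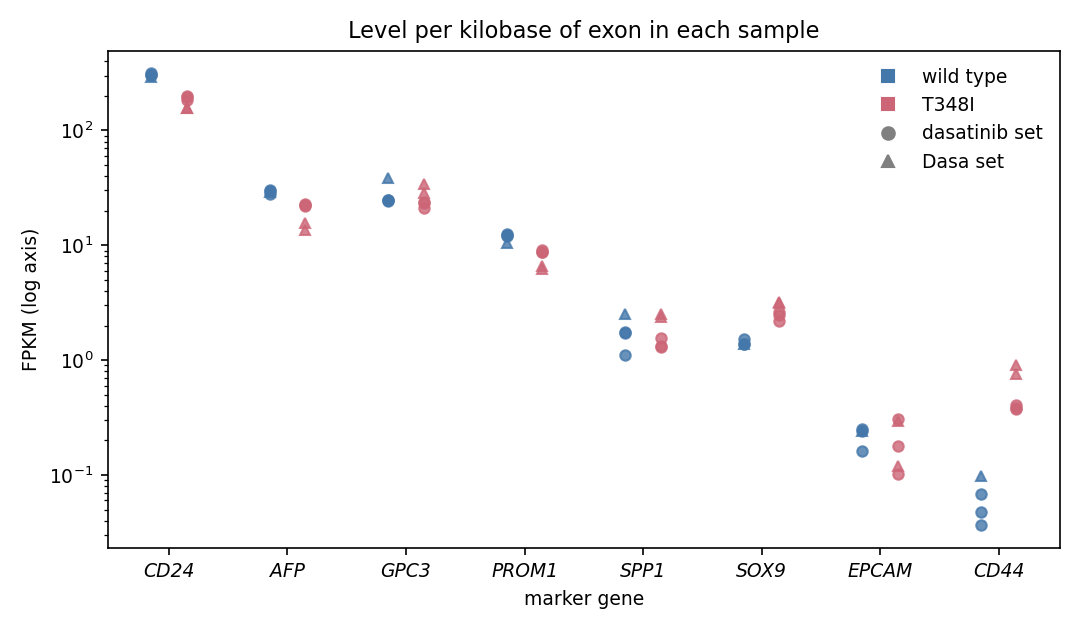
FPKM (CPM per kilobase of exon) of the markers in each genotype, on a logarithmic axis, with a point for each sample, circles for the dasatinib set and triangles for the Dasa set; DLK1 at 0 is left out. CD24 stands above all others, with means of 302 and 178 FPKM, and CD44 lies below EPCAM in wild type and above it in T348I.

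AFP, PROM1 and CD24 had similar profiles over the 9 samples. The root mean square difference between their log2 CPM profiles, each centred on its own mean, was 0.11 for AFP and PROM1, 0.11 for PROM1 and CD24, and 0.15 for AFP and CD24. For GPC3 and AFP, the markers of the same tumour, it was 0.51, and for CD44 and CD24 1.90. Among 9676 genes compared, the profiles nearest to that of AFP were those of LITAF (0.06), HKDC1 (0.07) and TAFA5 (0.07), where the median over all genes was 0.40. The nearest to PROM1 were CHP1 (0.04), ACBD5 (0.05) and ACADSB (0.05), with a median of 0.36, and the nearest to CD24 were NNT, FRAT1 and NID1 (each 0.05), with a median of 0.41. GPC3 was nearest to HOOK2, R3HDM2 and CFAP410 (each 0.07), with a median of 0.32. These likenesses describe 9 samples that share 2 genotypes and 2 sets, so any gene that follows both will be near.

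Other genes of the same lineage and pathways were counted for context. Of 15 further biliary and progenitor genes, 11 were tested, of which 4 rose and 4 fell, with a median log2 fold change of -0.01, where 20.7% of all genes tested were higher and 21.8% lower with a median of -0.01. Without the term for set 1 was called higher and 3 lower, where 1234 of all 14617 genes were higher and 1116 lower. Without the wild-type Dasa sample 4 were called higher and 2 lower, where 2697 of all 14761 genes were higher and 2434 lower. KRT19, a keratin of bile duct cells, stood at 12.7 ± 1.79 CPM in wild type (SD, n = 4) and at 42.2 ± 7.43 CPM in T348I (SD, n = 5) and rose by 1.66 on the log2 scale (SE 0.06, edgeR adjusted p = 7.77e-14). SOX4, another SOX factor of duct formation, rose by 0.41 (0.23 without the wild-type Dasa sample) and the Notch ligand JAG1 by 0.48. ONECUT1, a transcription factor of early liver and bile duct development, fell by 0.56 on the log2 scale. SOX9 thus rose beside KRT19, SOX4 and JAG1, while ONECUT1 was lower.

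Of 12 further oncofetal liver genes, 11 were tested, 6 rose and 1 fell, with a median log2 fold change of 0.19, against 20.7% higher and 21.8% lower among all genes. Without the term for set, 3 were called higher and 0 lower, where 1234 of all 14617 genes were higher and 1116 lower. HMGA1 and HMGA2, chromatin proteins of fetal tissue, rose by 0.76 and 0.25, SALL4, a fetal liver transcription factor, by 0.32, and IGF2BP1, an RNA-binding protein, by 0.21. AFP and GPC3 went the other way. Of 9 further surface markers used for stem-like liver cancer cells, 7 were tested, 3 rose and 3 fell, with a median of -0.15, against the same 20.7% and 21.8%. Without the term for set, 1 was called higher and 1 lower, against the same 1234 higher and 1116 lower of all genes. ICAM1, an adhesion molecule, rose by 1.11 (SE 0.04, edgeR adjusted p = 1.21e-13) and ANPEP (CD13) by 0.34, while ALCAM (CD166) fell by 0.41 and the transporter ABCG2 by 0.32.

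Among 29 ligands, partners and relatives of the markers, 23 were tested, 8 rose and 5 fell, with a median of 0.02, and the share that fell was near the 21.8% of all genes (20.7% were higher). Without the term for set, 5 were called higher and 3 lower, where 1234 of all 14617 genes were higher and 1116 lower. HAS3, which makes the hyaluronan that CD44 binds, had 0.548, 0.365, 0.677 and 0.455 CPM in wild type and 3.95, 3.73, 4.05, 8.24 and 9.01 CPM in T348I. Its log2 fold change was 3.26 (SE 0.23, edgeR adjusted p = 8.66e-10), and its genotypes had no overlap. The wild-type values of HAS3 come from 28 reads in all, and HAS2 was too low to test. Like CD44, HAS3 passed the filter on low counts only through T348I, and it was named for its small p. Its rise is therefore no independent support for that of CD44. EZR and MSN, which link the CD44 tail to actin, rose by 0.71 and 0.52, and MMP14, a protease that can cut CD44, by 0.27. The proteases ADAM10 and ADAM17 of the same list were not called, at 0.02 and -0.01. Of 11 regulators of AFP and of liver identity, all tested, 1 rose and 6 fell, with a median of -0.20, where 20.7% of all genes were higher and 21.8% lower. Without the term for set, 1 was called higher and 3 lower, against the same 1234 higher and 1116 lower of all genes. CEBPB rose by 0.68, and CEBPA and NR5A2, both activators of AFP, fell by 0.73 and 0.36.

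**Figure D5:**
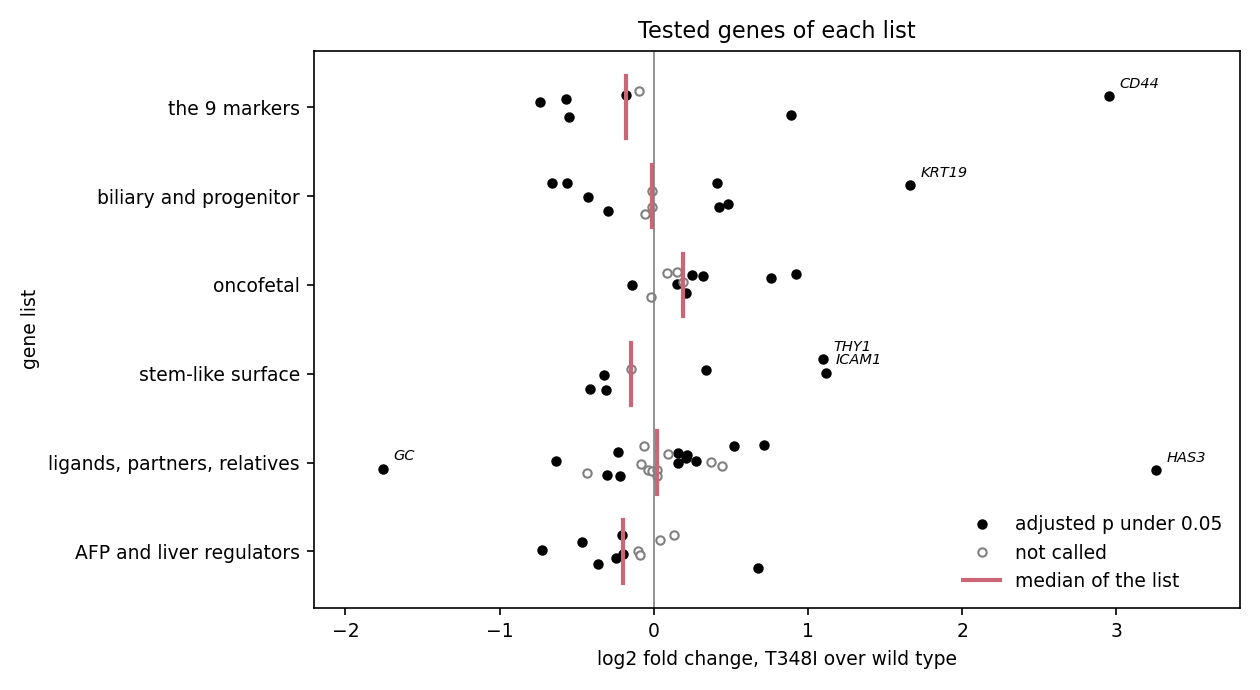
Log2 fold change of T348I over wild type for every tested gene of the markers and of each list, with filled points for called genes, open points for the rest and a line at the median of each list; genes beyond 1 in either direction are written out. The medians lie between -0.20 and 0.19, and CD44 and HAS3 are the highest points at 2.95 and 3.26.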

How the data were processed

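The authors deposited raw counts of reads per gene, using STAR 2.5.1b, Trimmomatic 0.35 and CASAVA 1.8.2 with build GRCh38 (per the submitters' processing notes). Which annotation release was used is not given in the sources used here. Libraries were stranded and of polyA RNA, per the labels' protocols, and the counts for the sense strand were used. Rows that name no gene held 22.2% to 29.8% of reads and were left out. Symbols were found for 57836 identifiers, and 55008 had the same version in GENCODE release 29. Coordinates are printed only for those.

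Counts were filtered, scaled by TMM and tested with edgeR 4.0.16 (quasi-likelihood, R 4.3.3) in a model with set and genotype, and p-values were adjusted over all genes tested by the Benjamini-Hochberg method at 0.05. A second model added their interaction. DESeq2 1.42.0, other scalings and filters, and leaving out each sample were the alternatives. On simulated data with 50 changed genes per size, 64%, 82%, 98% and 96% were recovered at 1.2-fold, 1.5-fold, 2-fold and 4-fold. The members and lists were chosen with earlier results of these data known. All members were named, with up to 4 genes of each list by smallest p (1 of these is not reported here) and 3 profiles for each of 4 members. No 2 samples were duplicates.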

Additional observations from a re-analysis of the deposited data

Results flagged for a closer look

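Values of 28 genes, the markers and the named genes of the lists, were screened in both genotypes, 56 groups in all. In 10 of these a sample lay far from the others relative to the range of its group, and chance alone gives about 1 in 20. The wild-type Dasa sample was the one concerned for GPC3 (104 CPM, highest), ONECUT1 (79.4 CPM, highest), ANPEP (387 CPM, highest), SOX4 (71.9 CPM, lowest), HMGA1 (414 CPM, lowest), EZR (288 CPM, lowest) and MSN (202 CPM, lowest). It is the only wild-type sample of its set. Wild-type dasatinib replicate 1 stood apart for SOX9 (6.02 CPM, highest) and for EPCAM (0.411 CPM, lowest, from 6 reads). Both gaps were small in absolute size, as the other wild-type samples had 5.46 to 5.48 CPM for SOX9 and 7, 9 and 8 reads for EPCAM. T348I dasatinib replicate 3 stood apart for ONECUT1 (39.3 CPM, lowest).

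The log2 fold change between genotypes differed between the sets by edgeR's interaction test for 10 of these genes. Of all genes tested, 7.33% were called by that test (3.14% higher and 4.19% lower). Those of the lists had been picked by the smallest p between genotypes, so they are not a random draw. The value in the Dasa set minus that in the dasatinib set was -0.61 for AFP, -0.22 for CD24, -0.48 for ONECUT1 and -0.34 for ABCG2. It was 0.66 for SOX4, 0.48 for EZR, 0.47 for HMGA1, 0.42 for MSN, 0.25 for JAG1 and 0.21 for HMGA2.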

How the results depend on the processing

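Of the 7 tested markers, 6 kept the direction of their genotype difference under all 16 alternatives and all but GPC3 of these kept their call; GPC3 lost it in the 3 cases given above, and SPP1, never called, turned to 0.036 without the term for set. Without that term, JAG1 (0.61), SOX4 (0.31), IGF2BP1 (0.28), ANPEP (0.44) and ABCG2 (-0.40) were no longer called. Calls over all genes then fell to 1234 higher and 1116 lower, those of the biliary list to 1 higher, of the oncofetal list to 3 higher and 0 lower, of the stem-like surface list to 1 higher and 1 lower, of the ligands and partners to 5 higher and 3 lower, and of the regulators to 3 lower. In the dasatinib set alone 2 biliary genes were lower, and leaving out a sample gave 2 to 4, with 2 without the wild-type Dasa sample. Differences of folds between the sets were called for 276 genes higher and 289 lower with DESeq2, against 459 and 612 with edgeR. Leaving out a sample left 1 or 2 markers lower by that difference, AFP in each case and CD24 in some; for GPC3 it was called (-0.30) only without T348I Dasa replicate 2. The same difference, not called, changed sign for CD44 with unstranded counts (-0.013) and without wild-type dasatinib replicate 1 (-0.077; -0.077 to 0.35 over the samples left out), and for SPP1 without wild-type dasatinib replicates 1 (-0.044) and 2 (-0.029; -0.044 to 0.27). The SOX9 set difference was lost in 10 of 13 alternatives. With a replicate block, 2 markers were higher and 4 lower, and the GPC3 log2 fold change was -0.20; the same numbers do not pair the samples, whose deviations correlated at -0.008, -0.076 and 0.003. All-gene calls were 2659 higher and 2713 lower with the replicate block. Low reads limit CD44 and HAS3 in wild type, GC in T348I, and EPCAM and DLK1 in both genotypes.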
